A study of Caenorhabditis elegans with 2 samples.

Results

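The let-7 family of Caenorhabditis elegans comprises let-7, mir-48, mir-84, mir-241, mir-793, mir-794 and mir-795, miRNAs grouped by a shared seed, the stretch near the 5′ end that pairs with target messenger RNAs. The 7 members were taken as every cluster of overlapping reads, on a chromosome, that the deposited annotation names in sense as exactly one of these miRNAs. This gave 12 of 49661 clusters on chromosomes, and each of the 7 members had at least 1. No cluster named a member in antisense, and none named a member together with another miRNA. The RNA came from lysed whole worms with the strain label fem-1, the name of a gene that worms need to make sperm; the allele, sex, age and stage are not given in the labels. The series has 2 small RNA libraries from this strain, 1 made for RNAs with a 5′ monophosphate, which miRNAs carry, and 1 treated with 5′ polyphosphatase to capture triphosphorylated RNAs as well. All values here are of the monophosphate library; the polyphosphatase library was not analysed here. With 1 library per group no replicate error can be given and no conditions were compared, and the 95% intervals in parentheses cover counting error only.

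Heterochronic genes set the order of developmental events in the worm larva. let-7 acts at the passage from the last larval stage to the adult and represses lin-41, while mir-48, mir-84 and mir-241 act together earlier and repress hbl-1. Each miRNA is cut from a hairpin, first by Drosha and then by Dicer, and usually one arm of the hairpin is retained in an Argonaute while the other is degraded. In this family the arm that carries the shared seed is the 5′ arm. Less is known of mir-793, mir-794 and mir-795.

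The list held 1417144 reads in clusters, of which 764909 on chromosomes were miRNA reads, spread over 154 miRNAs. All tissue groups of marker miRNAs had reads, from 91 for the neuronal group of 3 to 104235 for glial mir-228, and the 8 miRNAs of the mir-35 family, typical of oocytes and embryos, held 95930. The seam group consists of the members mir-48, mir-84 and mir-241, so its reads are no separate marker of tissue. A level in whole worms reflects both the number of expressing cells and the RNA per cell, which cannot be told apart.

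mir-48 was by far the most abundant member of the family. It had 11105 reads (10899 to 11314), which was 75.02% of the 14802 family reads (74.3 to 75.7). mir-84 followed with 1797 reads (1715 to 1882), or 12.1% of the family. let-7 itself had 1401 reads (1329 to 1476), or 9.46%. The 4 remaining members together made up 3.37% of the family (3.09 to 3.67): mir-793 had 200 reads (173 to 230), mir-241 had 149 (126 to 175), mir-794 had 100 (81.4 to 122) and mir-795 had 50 (37.1 to 65.9). The lead of mir-48 over mir-84 was 6.18-fold (5.88 to 6.50), and the step from let-7 down to mir-793 was 7.005-fold (6.04 to 8.16). The remaining steps were smaller. mir-84 exceeded let-7 1.28-fold (1.20 to 1.38), mir-793 exceeded mir-241 1.34-fold (1.08 to 1.67), mir-241 exceeded mir-794 1.49-fold (1.15 to 1.94) and mir-794 exceeded mir-795 2-fold (1.41 to 2.87). Each of these intervals lies above 1, though the one for mir-793 against mir-241 comes close to it, and the spread between replicates is unknown.

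**Figure D1:**
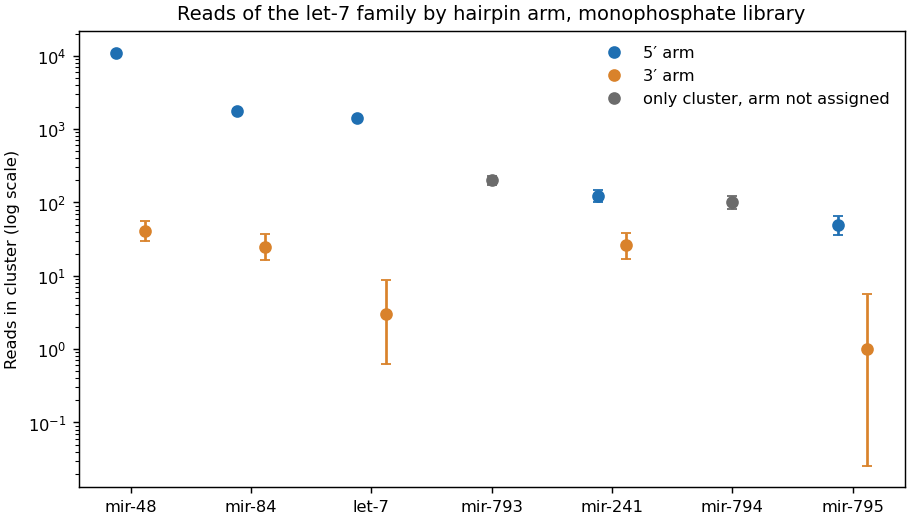
Reads in each cluster of the 7 let-7 family members (log scale), coloured by hairpin arm; bars are exact 95% Poisson intervals for counting error. The 5′ arm counts fall from 11064 for mir-48 to 49 for mir-795, while the 3′ arms of mir-48, mir-84 and mir-241 lie between 25 and 41.

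The members were spread widely through the order of all 154 miRNAs by reads. mir-48 ranked 14, mir-84 ranked 32 and let-7 ranked 36, whereas mir-793 ranked 66, mir-241 ranked 72, mir-794 ranked 79 and mir-795 ranked 91. At least 1000 reads were found for 3 of the 7 members, against 25.3% of all miRNAs. The median member had 200 reads, and the median of all miRNAs was 113.5.

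The miRNAs closest in level to each member were taken as the next above and the next below in this order, in the 1 library. let-7 lay between the intestinal mir-60 with 1407 reads and mir-240 with 1274. mir-48 lay between mir-65 with 12740 reads and mir-39, of the mir-35 family, with 10581. mir-84 had mir-55 above it with 2180 reads and mir-245 below it with 1645. let-7 and mir-60 differed by less than counting error (ratio 1.004, 0.932 to 1.08), while both neighbours of mir-48 and of mir-84 differed from them by more. The low members sat in a denser part of the order. mir-241 lay between mir-785 with 153 reads and mir-260 with 147, mir-793 between mir-79 with 203 and mir-355 with 188, mir-794 between mir-252 with 106 and mir-1022 with 89, and mir-795 between neuronal mir-124 with 56 and mir-1820 with 44. None of these 8 neighbours differed from its member beyond counting error. All neighbours were chosen by these same counts, so closeness to a member follows from the choice and is not a finding.

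**Figure D2:**
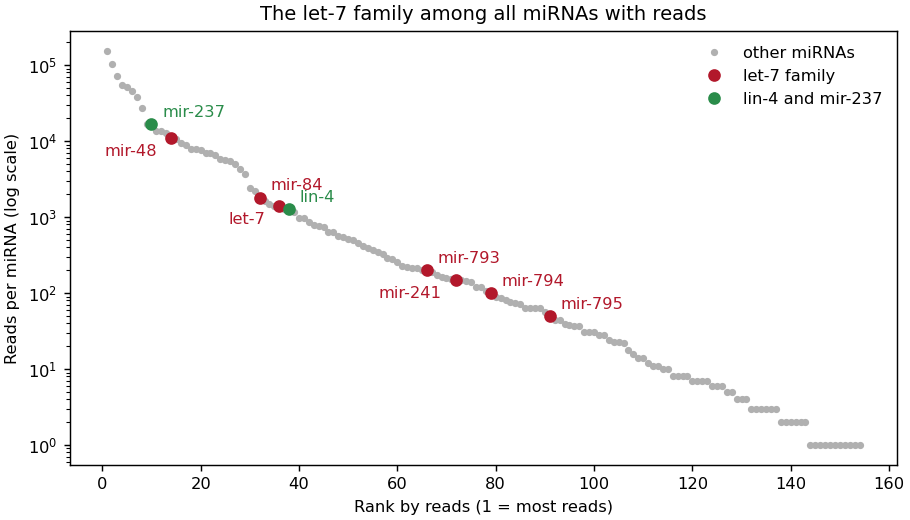
Reads per miRNA (log scale) against rank for the 154 miRNAs with reads, with the let-7 family in red and lin-4 and mir-237 in green. mir-48 stands at rank 14 and mir-795 at rank 91, and let-7 and lin-4 lie close together at 1401 and 1271 reads.

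The other heterochronic miRNAs are lin-4, which acts early in larval life and represses lin-14, and its relative mir-237. lin-4 had 1271 reads, and let-7 exceeded it 1.10-fold (1.02 to 1.19). mir-237 had 16828 reads and exceeded mir-48 1.52-fold (1.48 to 1.55). Thus both families had one member that took most of the reads, and in neither was it the founding member. Summed, lin-4 and mir-237 held 18099 reads, 1.22 times the let-7 family (1.20 to 1.25).

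The reads came from 5 places in the genome. Coordinates are those of the deposited list, whose genome build is not given in the sources used here. mir-48 (V 14364412 to 14364474) and mir-241 (V 14366180 to 14366246) lie on the minus strand of chromosome V, with 1751 nt between their leading clusters. mir-794 (I 12595693 to 12595714) and mir-795 (I 12594572 to 12594632) lie on the plus strand of chromosome I, 1097 nt apart. let-7 (X 14744112 to 14744176) and mir-84 (X 16022328 to 16022390) are on the minus strand of X, and mir-793 (X 13857939 to 13857961) is on its plus strand. The let-7 clusters fall in the annotated promoter window of C05G5.7, the mir-793 cluster lies within 1000 nt downstream of M03B6.2 (mct-3) in sense, and the mir-84 clusters lie downstream of B0395.1 (nhx-1) on the opposite strand. By chromosome, V gave 76.0% of family reads, X gave 22.96% and I gave 1.01%.

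The neighbours mir-48 and mir-241 were present at very different levels. mir-48 had 11105 reads and mir-241 had 149, a ratio of 74.5 (63.4 to 88.2). The pair on chromosome I was closer, with 100 reads for mir-794 and 50 for mir-795. For comparison, 30 pairs of miRNAs followed each other on the same strand within 5000 nt in the library, with a median ratio of 5.49. The ratio exceeded 10 in 36.7% of these pairs and in 1 of the 2 pairs of the let-7 family. 4 pairs had a higher ratio than mir-48 and mir-241. For mir-228 over mir-790 (2044 to 4001) and mir-40 over mir-41 (1025 to 2142) the whole interval lay above 74.5. The ratios of mir-1018 over mir-4925 (142, 25.1 to 5648) and mir-2209a over mir-2209c (86, 15.0 to 3436) rested on 1 read of the lower miRNA. Their intervals include 74.5. Pairs that share a miRNA are not independent, and whether the members of a pair share a primary transcript is not recorded.

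Reads of both arms were found for 5 of the 7 members, against 48.1% of the 154 miRNAs, and in all 5 the 5′ arm had more. Clusters wider than 30 nt were given no arm, so mir-58 (69 nt), mir-72 (67 nt) and mir-80 (67 nt) count as lacking both. The 154 also include miRNAs with 1 read, such as mir-1019, which cannot show both arms. The 48.1% is therefore no measure of how often both arms were present. Among the 79 miRNAs of at least 100 reads, wide clusters included, 45 had both arms, as did 4 of the 6 members there. let-7 had 1398 reads on the 5′ arm and 3 on the 3′ arm, a 5′ share of 99.8% (99.4 to 99.96). mir-48 had 11064 and 41, or 99.6% (99.5 to 99.7). mir-84 had 1772 and 25, or 98.6% (97.95 to 99.1). mir-795 had 49 and 1, or 98.0% (89.4 to 99.9). mir-241 stood apart from these with 123 and 26 reads, which left 82.6% on the 5′ arm (75.5 to 88.3) and 17.4% on the 3′ arm (11.7 to 24.5).

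Among the 45 miRNAs with both arms and at least 100 reads, the major arm held over 95% of reads in 80.0%, and in 3 of the 4 family members that qualified. The 5′ arm was the major one in 44.4% of the 45 and in 4 of these 4 members. The median share of the major arm was 99.6%. mir-241 was below that, with 40 of the 45 having a higher share and 4 a lower one, and mir-48 was at the median.

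The 3′ arms of mir-48, mir-84 and mir-241 were closer in level than their 5′ arms. These 3′ arms had 41, 25 and 26 reads, and no pair of them differed beyond counting error: mir-48 against mir-241 gave a ratio of 1.58 (0.942 to 2.69), mir-48 against mir-84 gave 1.64 (0.974 to 2.81) and mir-84 against mir-241 gave 0.962 (0.533 to 1.73). The 5′ arms of mir-48 and mir-241 differed 89.95-fold (75.3 to 108). let-7 was different again. Its 5′ arm was near that of mir-84, which exceeded it 1.27-fold (1.18 to 1.36), but with 3 reads its 3′ arm was lower than the 25 of mir-84 (ratio 8.33, 2.54 to 43.1). These intervals do not show that the 3′ arms were equal.

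**Figure D3:**
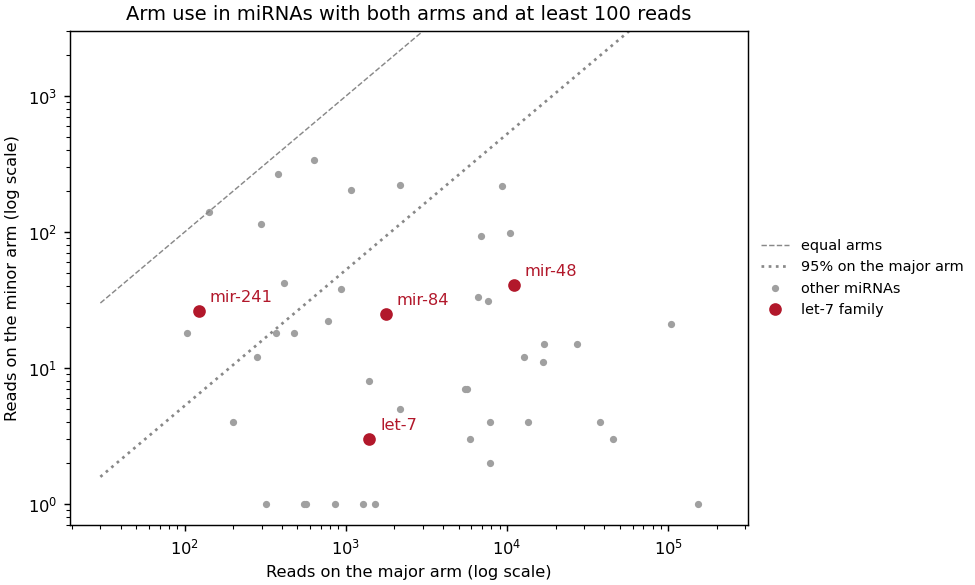
Reads on the minor against the major hairpin arm, both on log scales, for the 45 miRNAs with both arms and at least 100 reads; lines mark equal arms and 95% on the major arm. mir-241 lies between the lines at 123 and 26 reads, while mir-48, mir-84 and let-7 lie below the 95% line.

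For mir-793 and mir-794 a single cluster was named as the miRNA, so no arm could be given from position. With no other cluster nearby, another arm of mir-794 could hold up to 3% as many reads (a limit of 3 reads). For mir-793 that limit would be 1.50%, but an 18 nt cluster of 20 reads lies within 150 nt on the same strand. The list does not name it as a miRNA. Counted as the other arm of mir-793, it would be 9.09% of both clusters (5.64 to 13.7). The start of this cluster was 60 nt after that of the mir-793 cluster, against 38 to 44 nt in the 5 members with both arms. It was 1 distinct sequence with 20 edits on 20 reads. Whether it belongs to mir-793 was not tested. In the other 5 members the 5′ cluster carries the annotation of the miRNA gene's exon (F56A12.3 for mir-48, F56A12.4 for mir-241, B0395.4 for mir-84, C05G5.6 for let-7, F33E2.9 for mir-795) and the 3′ cluster does not. The single clusters of mir-793 and mir-794 carry it too, as M03B6.6 and T07D10.7.

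The spacing of the arms varied within a narrow range. The 3′ cluster began 38 nt after the start of the 5′ cluster in mir-84 and mir-795, 40 nt in mir-48, 43 nt in let-7 and 44 nt in mir-241. The gap between the clusters, which spans the loop, was 11 nt in mir-84, 14 nt in mir-48 and mir-795, 20 nt in let-7 and 23 nt in mir-241, against a median of 17 nt in the 45 miRNAs. Cluster edges are those of the outermost reads, so a cluster widened by few reads shortens the gap.

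**Figure D4:**
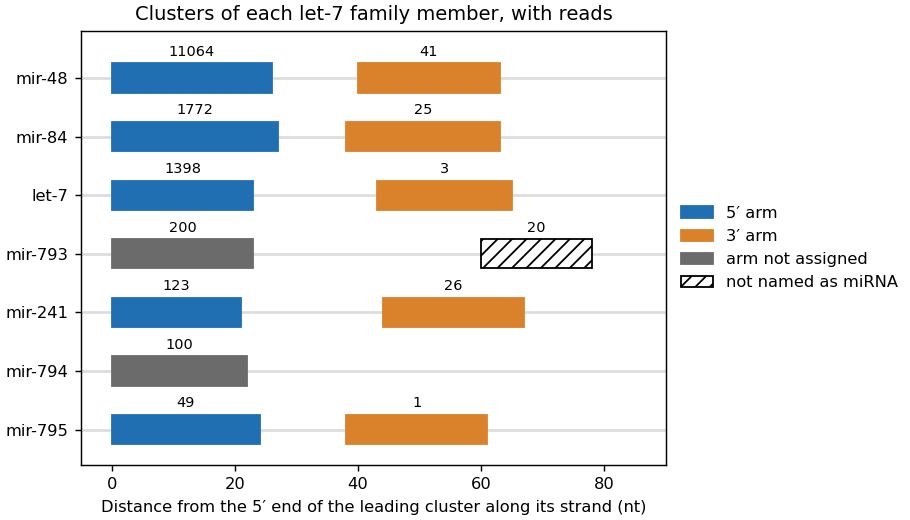
Position of each let-7 family cluster along its strand, in nt from the 5′ end of the leading cluster, with its reads above it. In the 5 members with both arms the 3′ cluster starts 38 to 44 nt from the start of the 5′ cluster; the hatched cluster beside mir-793 is not annotated as a miRNA and starts at 60 nt.

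The width of a cluster is the outer span of its reads, which were selected at 18 to 26 nt. The leading cluster was 21 nt wide in mir-241, 22 nt in mir-794, 23 nt in let-7 and mir-793, 24 nt in mir-795, 26 nt in mir-48 and 27 nt in mir-84. At 27 nt the mir-84 cluster is wider than the longest selected read, so its reads do not all share the same ends. The median over the 79 miRNAs of at least 100 reads was 25 nt. let-7 was thus narrower than mir-84 although their read counts differed only 1.28-fold.

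The list also gives a number for each cluster that was read here as its distinct sequences; the list does not define it, and every value per sequence rests on this reading. It rose with reads across miRNAs, and so is given beside them. mir-48 had 71 distinct sequences, against 76 for mir-65 and 92 for mir-39, its neighbours in level. mir-84 had 38, against 52 for mir-55 and 15 for mir-245. let-7 had 17, fewer than mir-60 with 25 and mir-240 with 39. mir-241 had 11, mir-793 and mir-795 had 5 each and mir-794 had 3. A limit of 5 sequences, chosen after the values were seen, held for 2 of the 6 members with at least 100 reads, mir-793 and mir-794, and for 3.80% of the 79 such miRNAs, the third being mir-355. The arms differed as well. In mir-48 a distinct sequence on the 5′ arm had 170 reads on average and one on the 3′ arm 6.83; in mir-84 these values were 63.3 and 2.50, and in mir-241 they were 20.5 and 5.20.

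Edits were few. The list does not define them; they were read here as differences from the genome, and they never exceeded the reads of a cluster. mir-48 had 106 edits on 11105 reads, or 0.955 per 100 reads, equal to the median of 0.955 over the 79 miRNAs, since it is itself the middle value. let-7 had 11 edits (0.785 per 100 reads) and mir-84 had 12 (0.668). mir-241 and mir-794 had 2 each, and mir-793 and mir-795 had none. For the 200 reads of mir-793 a limit of 3 edits gives 1.50 per 100 reads, and the exact Poisson interval reaches 1.84. Of the 79 miRNAs of at least 100 reads, 6.33% had no edit, and mir-793 was the 1 of 6 family members among them. Both edits of mir-241 were on its 3′ arm, with 2 on 26 reads there and 0 on the 123 reads of the 5′ arm. Conversion events, a column of the deposited list whose base change is not given, numbered 7 in the family, with 3 each in mir-48 and mir-84 and 1 in mir-241. What share of edits comes from sequencing error and what from changes to the RNA was not tested.

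**Figure D5:**
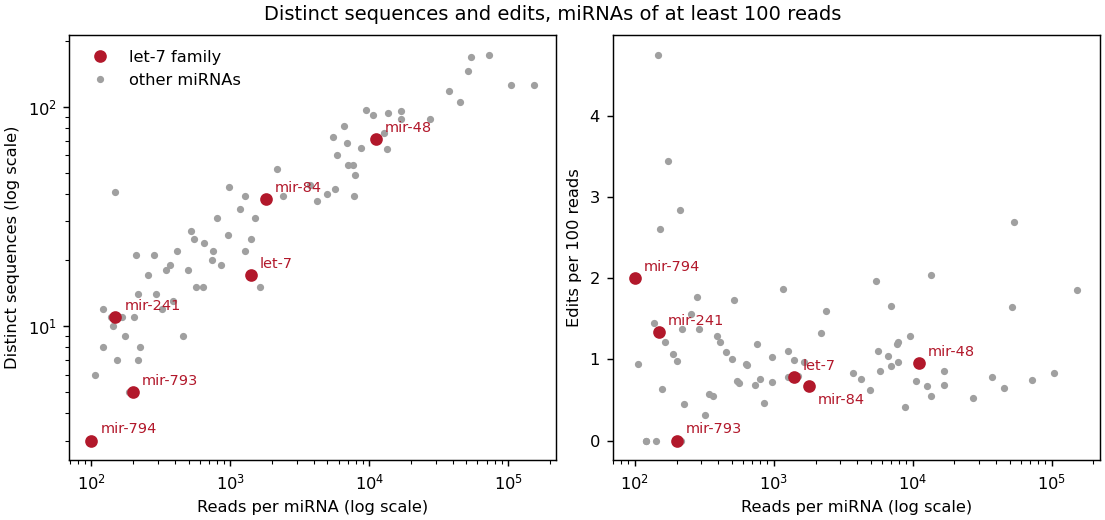
Distinct sequences (left, log scale) and edits per 100 reads (right) against reads per miRNA (log scale) for the 79 miRNAs of at least 100 reads, with the 6 let-7 family members among them in red. mir-793 with 5 and mir-794 with 3 distinct sequences lie at the lower edge of the left panel, and mir-48, mir-84 and let-7 lie between 0.668 and 0.955 edits per 100 reads.

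Because the members share their seed, reads could be exchanged between them if their remaining bases were also alike. The authors' uniqueness value, taken here as a measure of how far a placement was the only good one, ranged from 41 for mir-241 to 47 for mir-795 in the leading clusters. It was at least 40 in 7 of 7 members, against 87.0% of all miRNAs, whose values ran from 2 to 52. The limit of 40 lies just below the lowest member value of 41. The list gives no definition of its scale, but among miRNAs with a single read it rose with width. It was 42 for mir-4806 (21 nt), 44 for mir-1823 (22 nt), 46 for mir-2211 (23 nt) and 48 for mir-1019 (24 nt). The exception was mir-5547 (23 nt) with 8. The comparison at 40 is therefore not one of placement alone. Whether reads were exchanged between members was not tested.

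Reads of small RNA size were also counted on protein-coding genes of the heterochronic pathway. Of 14 protein-coding genes of this pathway, 9 had sense exon reads, with a median of 1 read and 52 reads in all; 35.5% of all 19983 protein-coding genes had any, with a median of 0. lin-41, the RNA-binding protein gene repressed by let-7, had 26 reads (17.0 to 38.1) in 18 clusters. lin-66, a regulator of lin-28, had 7 (2.81 to 14.4), and hbl-1, the zinc-finger gene repressed by mir-48, mir-84 and mir-241, had 6 (2.20 to 13.1). This order holds for exons alone: with all annotated features, introns and flanks included, lin-66 had 42 reads and lin-41 had 31. lin-28, whose protein blocks processing of let-7 precursors, had 2 reads. No sense exon read was found for lin-14, lin-29, lin-46, mab-10 and nhr-25 (a limit of 3 reads each). With all annotated features lin-29 had 6 sense reads and lin-46 had 2, while lin-14, mab-10 and nhr-25 still had none. Antisense exon reads were found for 5 of the 14 genes, against 16.4% of all genes. The highest were nhr-23 and nhr-25, nuclear hormone receptor genes of the moulting cycle, with 2 reads each, and lin-41, lin-29 and let-60 tied with 1. Of the 52 sense reads, 5 (9.62%, 3.20 to 21.0) lay in clusters annotated as 3′ untranslated region without coding sequence, where the binding sites of these miRNAs are known to lie. The same share was 3.26% summed over all protein-coding genes and 6.67% (10 of 150 reads) for the genes of miRNA production and turnover described next. The interval of the heterochronic genes includes 3.26%. None of the 26 reads of lin-41 lay there. The 5 reads were 2 of hbl-1 and 1 each of lin-66, daf-12 and nhr-23. Whether they relate to miRNA binding was not tested.

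Genes of miRNA production and turnover were counted in the same way. Of 14, 13 had sense exon reads, with a median of 11 and 150 reads in all. Among all protein-coding genes, 35.5% had any. rde-4, a double-stranded RNA-binding partner of Dicer in RNA interference, had 25 (16.2 to 36.9), pup-2, a uridylyltransferase that acts on let-7 precursors with LIN-28, had 17 (9.90 to 27.2), and dcr-1, which encodes Dicer, had 15 (8.40 to 24.7), as had ain-2, a partner of the miRNA Argonautes. With all annotated features instead of exons, xrn-2 would lead with 73 reads, against 11 on its exons, and drsh-1, which encodes Drosha, would follow with 40, against 11. paxt-1, a partner of the exonuclease XRN-2, had no sense exon read and 2 reads with all annotated features. In antisense, 6 of the 14 had exon reads, against 16.4% of all protein-coding genes. The highest were dcr-1 with 6, xrn-2, which degrades mature miRNAs, with 4 and rde-4 with 3. These counts are not adjusted for transcript length, so they are no levels and genes cannot be ranked by them, and whether the sense reads are breakdown products of messenger RNA was not tested.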

How the data were processed

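The authors deposited 1 list of read clusters, read here as the monophosphate library because its name shortens only that library's title and each line states support from 1 library. Reads were aligned with Bowtie2 2.1.0, per the submitters' processing notes; the sources used here do not state build, annotation release or adapter trimming. Values are the raw read counts per cluster that the authors deposited, with further attributes on each line read here as distinct sequences, edits, width and uniqueness, which the list does not define. A deposited score column, which the authors' attribute names call an entropy, was not used. The list is limited by its name to 18 to 26 nt and so does not give the depth of the library. Its genome-sized sequence called markov was left out.

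Clusters also annotated as rRNA, tRNA, snRNA or snoRNA were not counted as miRNA. Arms were clusters of at most 30 nt on 1 strand whose starts lay within 150 nt. Gene reads were those of clusters naming an exon of the gene, with names matched through the WBcel235 table, which supplied no positions; all 28 protein-coding genes of the lists were found, and lin-4 is given with the miRNAs. Count intervals are exact Poisson, shares exact binomial (Clopper-Pearson), and ratios come from the exact binomial interval of the first count among both. Reads carry no molecular identifiers, so these cover counting error only. For a count of 0 a fixed limit of 3 was used, which is lower than the 3.69 that the exact Poisson interval allows. Named were the members, the next miRNA above and below each in reads, lin-4, mir-237, and the 3 list genes with the most sense and antisense reads, ties included. Members and lists were chosen with earlier results of these data known. Parsing, arm assignment and Poisson intervals were tested on simulated data. Python 3.11.15, scipy 1.17.1 and matplotlib 3.10.9 were used.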

Additional observations from a re-analysis of the deposited data

Results flagged for a closer look

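A cluster outside the miRNA annotation lay beside mir-793 and had more reads than the limit of 3 that a count of 0 allows. It held 20 reads (95% interval 12.2 to 30.9) at X 13857999 to 13858016, on the strand of mir-793 and 37 nt beyond its cluster. The list names it for M03B6.2 (mct-3) alone. All 20 reads were 1 distinct sequence of 18 nt, with 20 edits on the 20 reads. The median over the 79 miRNAs of at least 100 reads was 0.955 edits per 100 reads. The uniqueness value was 28 against 43 for the 23 nt cluster of mir-793. The leading cluster of mir-5552, also 18 nt wide, had 28 too, but mir-5552 likewise carried edits, at 50 per 100 reads on 2 reads. Whether width or edits set these values was not tested. The unnamed cluster began 60 nt after the start of the mir-793 cluster, farther than the 38 to 44 nt of the 3′ arms in the other members. Set beside the 200 reads of mir-793 it would be 9.09% of both (5.64 to 13.7). No other cluster lay within 500 nt of a member. Whether these reads belong to mir-793 was not tested.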

How the results depend on the processing

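No paired analysis was possible because each group has 1 library. The 14802 family reads were 14802 as well with a uniqueness of at least 10, with antisense clusters added or with clusters of 1 miRNA only, and 14822 with the cluster beside mir-793, an alternative chosen after seeing the data. Clusters of 18 to 26 nt alone gave 13030, because the 27 nt cluster of mir-84 drops out; the share of mir-84 in the family then fell from 12.1% to 0.192% and that of mir-48 rose to 85.2%. The family's share of miRNA reads, 1.94%, was 2.47% in those clusters, 1.05% of all reads on chromosomes, 7.97% without the 10 miRNAs with the most reads and 4.09% by distinct sequences. By distinct sequences mir-48 had 47.3% of the family and mir-84 25.3%, the 5′ arm share was 54.5% in mir-241 and 73.7% in mir-84, and mir-793 and mir-794 ranked 105 and 121 among the 154 miRNAs; all 13 shares weighed so left their counting intervals. The arm share of mir-84 had no value without its 27 nt cluster. Its leading cluster alone gave mir-241 0 edits per 100 reads instead of 1.34. Counting all annotated features put lin-66 (42 reads) above lin-41 (31) and xrn-2 (73) above rde-4 (35), and raised the sense reads of the heterochronic list from 52 to 103 and of the miRNA pathway list from 150 to 265, the latter added after seeing the data. The depth limits mir-795, with 1 read on its 3′ arm, and every gene with few reads.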
